A study of Daphnia magna with 12 samples.

Results

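Among 14338 array probes for transcripts of Daphnia magna, the water flea, 69 varied by over 16-fold between pools of animals and met the filters given below. Their values are described here, pool by pool and against the dose of tris(2-butoxyethyl) phosphate (TBEP), a flame retardant of the organophosphate class. Females entered the study as neonates less than 24 hours old and spent 21 days in culture medium alone (control) or with TBEP at 14.7, 147 or 1470 µg/L, so that all 4 groups shared age at the start, sex and culture conditions. Each group had 3 biological replicates, each 1 RNA sample from 10 pooled whole animals on its own 1-colour Agilent array. Agilent's processed signal, a background-corrected intensity, was put on a log2 scale with each array's 75th percentile at 0.

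A pool of whole animals mixes all organs, so fewer cells of a type and less RNA per cell cannot be told apart in any value below. Adult Daphnia females reproduce by parthenogenesis in repeated broods, and each brood cycle is tied to a moult, in which the old cuticle is shed. Yolk provisioning, cuticle synthesis and the release of young therefore recur through adult life, and transcript levels of many genes are known to follow that cycle in crustaceans. The labels give no moult or brood stage for the pools, and its part in the values below was not tested. The probes carry only identifiers of the array design, so none of the 69 has a gene name here, and no probe sequence is shown.

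Members were chosen from the measured values. A probe counted as tested where at least 1 group had it well above background in all 3 of its pools, which held for 10040 probes (70.0%). The range is the highest minus the lowest log2 value over 11 arrays, all but replicate 1 of the 14.7 µg/L group. That array stood apart from the rest: its median correlation with the other 11 arrays over the tested probes was 0.90, against 0.968 to 0.984 for each of the others. A range above 4 log2 units, 16-fold, was found for 102 tested probes. Of these, 33 were dropped because they lay at least 4 log2 units below their own median on the array that stood apart, and 69 remained (0.687% of those tested).

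The 69 ranges ran between 4.01 and 11.4 log2 units with a median of 4.61, a 24.5-fold difference between the highest and the lowest pool. Over all 10040 tested probes the median range was 0.95 log2 units (1.93-fold), and 95% of ranges lay below 2.56. Just inside the limit were DM02009P2 at 4.01 and DM14208P1 at 4.03, and just outside it DM08947P2 at 3.99 and DM04851P1 at 3.97. No gap therefore separates the 69 from the probes below the limit.

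Most of the 69 came near the array's background somewhere. On all 12 arrays, 27 of them (39.1%) were well above background, against 81.6% of the tested probes. On the array where it was lowest, 40 were not well above background, so the low end of their range rests on signals too dim to measure. With every signal raised to at least the dimmest that counted as well above background on its array, 46 of the 69 still ranged over 4 log2 units. The software's own error was a median of 30.3% of the signal on that lowest array and 10.0% on the highest. By mean signal the 69 ran between percentiles 1.84 and 97.3 of the tested probes, with a median at percentile 38.0, 23 lay above the arrays' 75th percentile, and none was among the 200 brightest. A single extreme pool carried many of the ranges: 42 of the 69 still ranged over 4 log2 units when the probe's highest pool was left out, 25 when its lowest was, and 21 in both cases.

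The lowest values gathered in a few pools. Replicate 1 at 1470 µg/L was the lowest pool for 22 of the 69, and replicate 2 at 147 µg/L and replicate 2 at 1470 µg/L for 11 each. The highest values were spread more widely, with 10 probes in replicate 3 at 14.7 µg/L, 10 in replicate 2 at 147 µg/L, 9 in replicate 3 at 1470 µg/L and 8 in replicate 3 of the controls. For 18 probes the highest and the lowest pool belonged to 1 and the same group.

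Much of the range lay among pools of a single treatment. Within the controls the median range of the 69 was 1.82 log2 units, within 14.7 µg/L it was 1.78, within 147 µg/L 2.72 and within 1470 µg/L 3.71. The tested probes as a whole had medians of 0.40, 0.70, 0.50 and 0.54 in the same order of dose. A range over 4 among 3 pools of the same treatment was reached by 5 probes in the controls, 9 at 14.7 µg/L, 13 at 147 µg/L, but 31 at 1470 µg/L. Each pool was also left out in turn, a count added after the values were seen. Without replicate 1 the count at 1470 µg/L was 4, against 20 without replicate 2 and 24 without replicate 3, and 17 of the 31 belonged to the set of 20 described below. Leaving out 1 pool gave 2 to 4 in the controls, with 2 without replicate 2. At 14.7 µg/L it gave 5 without replicate 1, the array that stood apart, 5 without replicate 2 and 3 without replicate 3. At 147 µg/L it gave 9, 4 and 5 without replicates 1, 2 and 3. The 5 in the controls, given after their values were seen, were DM07075P2, DM11450P3, DM05687P2, DM11692P2 and DM06729P1. Differences between groups held a median of 23.5% of a member's variance, against 19.9% for all tested probes. Means of 3 pools differ by sampling alone, so neither figure measures an effect of dose. Since the rule used these values, neither was tested.

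The 69 probes were grouped by the Pearson correlation of their values over the 11 arrays, with average linkage and groups joined down to an average r of 0.7. All points of such a correlation share the arrays and their scaling, so r is given as a description only. There were 23 groups: a set of 20, called set A here, 2 sets of 5, called B and C, 13 smaller sets of 2 to 4 that held 32 probes, and 7 probes on their own.

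Set A was low in 3 pools, each of a different treatment. The set's median departure from each probe's own median, in log2 units, was 0.00, -1.76 and 0.29 in control replicates 1, 2 and 3. At 14.7 µg/L it was 1.24, -0.41 and 0.72. The pools at 147 µg/L had 0.50, -2.37 and -0.04, while those at 1470 µg/L had -3.54, 0.79 and 0.88. The low pools were thus replicate 1 at 1470 µg/L, where 17 of the 20 probes had their lowest value, and replicate 2 at 147 µg/L, where the other 3 did, followed by replicate 2 of the controls. The groups overlapped, and the 1470 µg/L pools held both the lowest and, among the 11 clustered arrays, the highest median.

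The brightest probes of set A varied enough to move their share of the whole signal. DM07108P3 had intensities of 9626, 1499 and 12685 in the controls, 45327, 15362 and 33790 with 14.7 µg/L TBEP, 26563, 2379 and 10548 with 147 µg/L, and 26.9, 55151 and 61799 with 1470 µg/L. All 12 of these signals were well above background, and its range of 10.9 log2 units was the second widest of the 69. In replicate 1 at 1470 µg/L it thus lay below that array's median signal of 32.6, and in the other 2 pools of the dose it was far above theirs, 38.6 and 43.0. DM07343P2, named here after its values were seen, followed the same course with 261, 50362 and 62349 at 1470 µg/L against 13629, 2250 and 16235 in the controls. All 20 probes together made up 0.0112% of the summed signal in 1470 µg/L replicate 1 and 0.834% in 1470 µg/L replicate 3, with 0.256%, 0.0422% and 0.328% in control replicates 1, 2 and 3.

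The probes most like the rest of the set were DM04815P2, with a mean r of 0.91 with the other members, and DM14609P1, with 0.90. DM04815P2 read 1176, 338 and 1700 in the controls, 2184, 723 and 1457 with 14.7 µg/L TBEP, 1309, 228 and 875 with 147 µg/L, and 107, 1647 and 2250 with 1470 µg/L. The same 3 pools were low as for DM07108P3, with a smaller span. DM14609P1 was dimmer, between 1.98 in 1470 µg/L replicate 1, where it was not well above background, and 60.1 in 14.7 µg/L replicate 3. Within the set the pairwise r had a median of 0.88 and ran between 0.48 and 1.00. DM12199P3 and DM06695P1, the closest pair of all 69 and named for that after their values were seen, had an r of 0.999.

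Replicate 1 at 14.7 µg/L was not used in the grouping. In that pool all 20 probes of set A lay above their own medians, by 0.43 to 2.23 log2 units, and 11 of them above all 11 other pools. On this array, which stood apart, 59.1% of the tested probes lay above their own medians and 25.9% above all 11 other pools, and of all 69 members 35 and 14 did. The drop rule did use this array, and it took out probes at least 4 log2 units below their medians there. The counts on this array are therefore not independent of how the members were chosen, and are a description only. Of the 9971 tested probes outside the 69, 49 followed set A with an r above 0.9 over the 11 arrays, and 7 opposed it with an r below -0.9. The r was taken with the mean departure of the set's probes, not with the medians given above. These 49 had a median range of 2.43 log2 units, 45 of them were well above background on all 12 arrays, and all 49 lay above their own medians in replicate 1 at 14.7 µg/L, by a median of 0.94. The 49 were not chosen for their range, but they were picked by their r with the set over the same 11 arrays. That they share its course there is therefore a description and no test.

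Leaving out replicate 1 at 1470 µg/L, 11 of the 20 still ranged over 4 log2 units. Leaving out replicate 2 at 147 µg/L, 17 did, and leaving out replicate 2 of the controls, all 20 did. The number of probes well above background was 10209 on the 1470 µg/L replicate 1 array, within the 9545 to 10983 of the other 2 arrays of that dose. On the 147 µg/L replicate 2 array it was 8925, the fewest of the 12. The 10 spike-in probes departed from their medians by 0.21 and 0.10 log2 units on those 2 arrays, and by between -0.48 and 0.36 over all 12.

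Set B was low in 1 pool. Its 5 probes, DM12170P3, DM06803P4, DM10189P1, DM07860P4 and DM07013P2, all had their lowest value in replicate 3 at 147 µg/L, where the set's median departure was -3.74 log2 units, against 0.32 and -1.08 in replicates 1 and 2 of that dose. In the controls it was 0.46, 0.48 and 1.07. DM12170P3, the member most like the rest, read 114.9, 111.4 and 162.8 in the controls, 53.6, 43.1 and 78.0 with 14.7 µg/L TBEP, 79.5, 26.2 and 4.01 with 147 µg/L, and 65.5, 58.6 and 49.7 with 1470 µg/L. All 9 exposed pools lay below all 3 control pools, and the value of 4.01 was not well above background. On the scaled log2 values the margin was narrow, with -1.22 in 14.7 µg/L replicate 3 against -1.17 in control replicate 1. The share of tested probes with all exposed pools below all control pools was not counted. DM06803P4 read 921, 1272 and 1230 in the controls, 316, 432 and 587 with 14.7 µg/L TBEP, 427, 357 and 33.9 with 147 µg/L, and 805, 403 and 299.8 with 1470 µg/L. None of the 5 ranged over 4 log2 units when replicate 3 at 147 µg/L was left out.

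Set C was lowest in 1 pool at 1470 µg/L, and its other low and high pools were spread over treatments. The 5 probes, DM07430P1, DM07032P4, DM08034P3, DM08907P2 and DM09003P3, had their lowest values in replicate 2 at 1470 µg/L, where the set's median departure was -2.82 log2 units. In replicate 3 at that dose it was -1.47 and in replicate 1 1.28, against 0.23, 0.50 and -1.25 in control replicates 1, 2 and 3. At 14.7 µg/L it was 0.46, -0.03 and -0.30, and at 147 µg/L -0.61, 1.04 and 0.00. Control replicate 3 was thus also low, and replicate 2 at 147 µg/L also high. Over the 11 arrays DM08907P2 and DM09003P3 had their highest values at 147 µg/L. DM07032P4 read 9901, 296 and 1858 at 1470 µg/L against 4770, 4237 and 1262 in the controls, and DM07430P1 read 3893, 166 and 629 at 1470 µg/L against 2237, 2330 and 617 in the controls. The groups overlapped for both. Over the 11 arrays the mean departures of sets A and C had an r of -0.77, those of A and B 0.06 and those of B and C -0.04. None of the 5 ranged over 4 log2 units without replicate 2 at 1470 µg/L.

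The widest range of all belonged to a probe in no set. DM15080P2 read 38594 in replicate 3 at 14.7 µg/L and between 13.5 and 29.2 in the other 11 pools, a range of 11.4 log2 units that shrank to 0.89 without that pool. Such single pools occurred elsewhere among the smaller sets and single probes, and those that follow were picked after their values were seen, apart from DM04571P2. DM04571P2 read 497 and DM03817P2 766 in replicate 2 at 1470 µg/L, against at most 11.46 and 57.8 in every other pool. DM06729P1 read 974 in replicate 2 of the controls, and its next highest value was 127 in replicate 1 at 14.7 µg/L. DM09841P3 went the other way, with 1.92 in replicate 1 at 1470 µg/L and between 44.1 and 81.9 in the other 11.

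Some small sets had high and low pools within several groups. The pair DM05687P2 and DM11692P2, with an r of 0.986, had ranges of 8.96 and 9.97 log2 units. DM11692P2 read 1406, 1400 and 26.4 in the controls, 3825, 2192 and 28.7 with 14.7 µg/L TBEP, 118, 148 and 3445 with 147 µg/L, and 3.34, 1748 and 94.9 with 1470 µg/L. In the controls and at every dose, high and low pools stood beside each other within a single treatment. The set of DM06742P2, DM04953P1 and DM11268P4 was high in another selection of pools. DM06742P2 read 627, 2828 and 1790 in the controls, 127, 874 and 461 with 14.7 µg/L TBEP, 460, 2196 and 35.9 with 147 µg/L, and 2193, 28.7 and 27.4 with 1470 µg/L. DM05752P3 and DM06345P2, with an r of 0.995, were highest in control replicate 3, at 2181 and 973, and lowest in 147 µg/L replicate 2, at 78.0 and 38.6.

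Further small sets were also named after their values were seen. DM04881P2, DM08843P1 and DM11176P2 were lowest in replicate 2 at 147 µg/L, with 2.24, 2.20 and 2.48, none well above background there. The set of DM03591P1, DM10634P2 and DM10861P2 was highest in replicate 3 at 147 µg/L. Its brightest member, DM10634P2, read 208, 338 and 350.1 in the controls, 46.5, 103 and 331 with 14.7 µg/L TBEP, 141, 237 and 696 with 147 µg/L, and 230.2, 35.8 and 557 with 1470 µg/L. Each dose had pools on both sides of the controls' lowest value. DM12776P3, in a set of 4 with DM04822P1, DM07803P3 and DM11248P1, read 149, 181 and 196 in the controls, 118, 91.9 and 186 with 14.7 µg/L TBEP, 45.5, 85.7 and 36.1 with 147 µg/L, and 125, 10.0 and 95.1 with 1470 µg/L. Its 147 µg/L pools lay below all controls, and its lowest pool was replicate 2 at 1470 µg/L. DM06182P1, DM11450P3 and DM12123P3 were high in replicate 2 of the controls, where DM06182P1 read 6666 against 742 and 1142 in control replicates 1 and 3. The pair DM05773P2 and DM07807P4 was lowest, over the 11 arrays, in replicate 3 at 1470 µg/L, and the pair DM04829P3 and DM07284P1 was highest, on the scaled log2 values, in replicate 2 at 147 µg/L. DM07284P1 read 394 there, 399 in replicate 3 and 44.1 in replicate 1 of that dose.

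Against dose, none of the 69 passed the test in any comparison of group means fitted over all 12 arrays without a term for replicate number. Some fits under other settings, given in the last section, did call members. Groups were compared with limma, a linear model with variances moderated across probes, fitted to all 10040 tested probes over 12 arrays with Benjamini-Hochberg adjustment over all of them at 0.05. Because the range that chose the 69 includes differences between groups, these counts are a description and carry no support of their own. At 14.7 µg/L against control 0.0199% of the tested probes were called and none of the 69, at 147 and 1470 µg/L against control no tested probe was, and none for a trend over the rank of the dose. At an unadjusted limma p under 0.05 stood 5 of the 69 at 14.7 µg/L against 2.54% of all tested probes, 7 at 147 µg/L against 2.12%, 1 at 1470 µg/L against 0.717%, and 6 for the trend against 1.33%. The 5 at 14.7 µg/L were DM09930P1, DM14920P1, DM06990P1, DM15326P3 and DM10185P2, all lower than control, and the 1 at 1470 µg/L was DM04822P1. Between doses limma called 0.0199% of the tested probes at 147 against 14.7 µg/L and at 1470 against 14.7 µg/L, and none at 1470 against 147 µg/L, with none of the 69 in any. Unadjusted counts there were 9 of the 69 against a background of 7.01%, 8 against 2.58% and 1, DM08907P2 of set C, against 0.707%. In the F test over the 4 groups limma called 0.0199% of the tested probes and none of the 69, and 8 of the 69 had an unadjusted p under 0.05, against 2.13% of all tested probes.

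The intervals were wide. The median half-width of the 95% interval for a difference from control was 2.25 log2 units for the 69 and 0.56 for all tested probes. For a typical member the interval thus reached over 4-fold to either side of the estimate. The smallest difference that 3 pools a group could detect was not computed. The p-values measure the spread between these pools, and the labels do not say more about what separates 1 pool from another than that they are biological replicates.

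Means at 1470 µg/L were below those of the controls for 55 of the 69, and for 38 without 1 pool. The mean log2 difference from control was below 0 for 39 of 69 at 14.7 µg/L, 41 at 147 µg/L, but 55 at 1470 µg/L, with medians of -0.11, -0.21 and -0.54. For all tested probes the medians were 0.03, -0.01 and -0.00, and their share below 0 was not counted. Probes of a set vary together, and set A gave 15 of the 55 and set C 5, so the 55 are not independent. The replicates lay on 2 slides, with replicates 1 and 2 of every group on the first and replicate 3 on the second. On the first slide alone the members' median at 1470 µg/L was -0.65, with 55 below 0, and on the second, with 1 pool a group, 0.09, with 32 below 0. At 14.7 µg/L the 2 slides gave -0.26 and 0.25 and at 147 µg/L -0.16 and -0.47, and leaving out replicate 1 at 14.7 µg/L gave -0.13 there. When replicate 1 at 1470 µg/L was left out, 38 of 69 were below 0 at that dose, with a median of -0.29.

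The sets differed in where their means lay. All 20 probes of set A had higher means at 14.7 µg/L than in the controls, with a median difference of 0.98 log2 units, while 16 were lower at 147 µg/L and 15 at 1470 µg/L, with medians of -0.20 and -0.17. No probe of the set had an unadjusted p under 0.05 in these comparisons, and the median half-width of the interval was 2.59. Without replicate 1 at 14.7 µg/L, where the set was highest, 17 of 20 were higher than in the controls with a median of 0.65. The counts at the higher doses differed between slides. At 1470 µg/L the first slide gave a median of -0.51 with 17 of 20 lower, and the second slide 0.44 with 1 lower. At 147 µg/L the first slide gave -0.004 with 10 lower, and the second slide -0.72 with 16 lower. The 4 members whose 3 pools at 14.7 µg/L all lay above all 3 control pools were all in set A, DM07343P2, DM11073P4, DM07108P3 and DM11446P1, listed after their values were seen, and 3.71% of the tested probes did the same. DM07108P3 had a difference of 2.55 log2 units there, with a standard error of 2.40 and an adjusted limma p of 0.997.

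Set B had lower means than the controls at every dose, with median differences of -0.99 at 14.7 µg/L, -2.27 at 147 µg/L and -0.996 at 1470 µg/L. At 147 µg/L 4 of the 5, all but DM07860P4, had an unadjusted limma p under 0.05, and none passed adjustment, where the lowest adjusted p was 1.00. The first slide, without replicate 3 at 147 µg/L, gave a median of -0.88 there and the second slide -4.59. DM12170P3 differed from control by -0.97 ± 0.86 at 14.7 µg/L, -2.27 ± 0.86 at 147 µg/L and -1.01 ± 0.86 at 1470 µg/L (difference ± standard error, n = 3 pools each). Its 3 pools lay below all control pools at each dose. The members that did so numbered 7 at 14.7 µg/L, where 2.42% of tested probes did, 5 at 147 µg/L, where 4.04% did, and 2 at 1470 µg/L, where 2.61% did. The 5 were DM12170P3, DM06803P4, DM12776P3, DM08843P1 and DM11369P2, the 2 were DM12170P3 and DM04822P1, and no member lay wholly above the controls at 147 µg/L, against 4.88% of tested probes, or at 1470 µg/L, against 2.67%. Set C had median differences of -0.11, 0.22 and -0.86 from low to high dose, and all 5 of its probes had lower means at 1470 µg/L than in the controls, none with an unadjusted p under 0.05 there.

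The smallest p of any member against control belonged to DM09930P1. Its intensity was 2.63, 5.01 and 2.05 at 14.7 µg/L against 41.1, 73.3 and 26.2 in the controls. It read 33.7, 54.9 and 28.3 at 147 µg/L, then 10.8, 51.7 and 29.5 at 1470 µg/L. The 14.7 µg/L pools lay below all 9 others, and none of them was well above background. The fold there is therefore a bound, at least 3.91-fold lower than control, taken, array by array, against the probe's own signal or the dimmest signal that still counted as well above background, whichever was higher. The fitted difference was -3.63 log2 units (standard error 0.55, adjusted p = 0.1135 by limma). With another background correction, normexp with an offset of 50, which raises dim signals, the difference was -0.03. DM14920P1 varied with it, with an r of 0.83, and read 2.59, 9.96 and 2.10 at 14.7 µg/L, none well above background, against 19.6, 39.8 and 7.40 in the controls.

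DM15326P3 and DM06990P1, a pair with an r of 0.983 picked after their values were seen, were also low in all 3 pools at 14.7 µg/L and well above background on all 12 arrays. DM06990P1 read 53.5, 181.7 and 25.4 at 14.7 µg/L against 351, 284 and 279 in the controls, with 126.4, 403 and 546 at 147 µg/L, then 417, 149 and 359 at 1470 µg/L. All pools at 14.7 µg/L lay below all control pools, while those at the higher doses overlapped the controls. The differences at 14.7 µg/L were -2.06 ± 0.66 log2 units for DM06990P1 and -1.89 ± 0.72 for DM15326P3 (difference ± standard error, n = 3 pools each), with adjusted limma p-values of 0.997.

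At 147 µg/L the smallest p on the lower side was that of DM11369P2. It read 20.7, 2.22 and 3.95 at 147 µg/L against 77.3, 44.0 and 151.2 in the controls, with 72.0, 57.5 and 52.1 at 14.7 µg/L, then 61.5, 6.43 and 39.3 at 1470 µg/L. All 3 pools at 147 µg/L lay below the controls, and 1 of them was well above background. The difference was -3.44 log2 units with a standard error of 0.91 and an adjusted limma p of 1.00, and with normexp it was -0.83. On the higher side DM10185P2 had the smallest p at 147 µg/L, with a difference of 0.90, a standard error of 0.58 and an adjusted limma p of 1.00.

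DM04822P1 had the smallest p of the 69 for a trend downward over the dose rank. Its intensities were 17.9, 8.42 and 32.9 in the controls, 16.1, 27.5 and 42.4 with 14.7 µg/L TBEP, 4.89, 9.17 and 5.36 with 147 µg/L, and 3.39, 2.33 and 8.40 with 1470 µg/L. The 1470 µg/L pools lay below the controls, but all of these signals were dim, and only 1 of 6 pools at the 2 higher doses was well above background. The margin was narrow, with 8.40 in 1470 µg/L replicate 3 against 8.42 in control replicate 2. On the scaled log2 values these were -4.96 and -4.88. The trend was -0.77 log2 units per step of the dose rank (standard error 0.19, adjusted p = 1.00 by limma) and the difference at 1470 µg/L -1.94 (standard error 0.60, adjusted p = 1.00 by limma), and normexp gave -0.11 and -0.19. In the other direction DM14920P1 had the smallest p for a trend upward, 0.52 per step with a standard error of 0.22, which its low values at 14.7 µg/L entered, and normexp gave 0.07. DM08354P2 had the smallest p among higher means at 14.7 µg/L, with 10.3, 194 and 24.3 there against 12.9, 16.7 and 12.4 in the controls. Its difference of 1.61 (standard error 0.76, adjusted p = 0.997 by limma) was 0.52 without replicate 2 at that dose, where it read 194. For DM04571P2, which had the smallest p among higher means at 1470 µg/L, the difference of 1.97 (standard error 1.17, adjusted p = 1.00 by limma) was 0.09 without the pool that read 497.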

How the data were processed

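Scanner files of 12 arrays were used. Agilent Feature Extraction 11.5.1.1 made them, per the file headers. The deposited processed signal is an intensity already corrected for background, and other deposited columns flag spots well above background, saturated or outlying, per the file headers. The authors' deposited log2 table carries no statement of its scale, centring or direction. Compared with the scanner files, it held quantile-normalised log2 signals centred on each probe's median (r of 1.00 on every array, column medians between -0.03 and 0.13), and it was not used for the values reported.

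Outlier spots (28) and control spots were left out, and no probe spot was saturated. Spots of 1 probe were averaged on the log2 scale (870 probes had 2 spots, none of the 69), and each array's 75th percentile over probes, an intensity of 172 to 261, was set to 0. No array was left out of the limma fit. An array had 8925 to 11125 probes well above background, and the number of arrays limits the precision.

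The 69 probes and all lists were chosen with earlier results of these data known. Named probes were the 2 most like the rest of each set of at least 5, the 2 widest ranges, the widest outside a set, the smallest p per comparison and direction against control or over the trend, and the 2 on each side of the limit. Tools were limma 3.58.1 in R 4.3.3 and scipy 1.17.1 in Python 3.11.15, tested on simulated data. Tests were two-sided. Alternatives were another background correction, quantile normalisation, a floor at the lowest signal well above background, other limits and linkages, a slide or replicate block, and leaving out each array. Probes matched no column of the RefSeq gene table for assembly ASM2063170v1.1, so gene lists were not applied.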

Additional observations from a re-analysis of the deposited data

How the results depend on the processing

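Normexp with an offset of 50, which raises dim signals, left 16 of the probes past the limit (12 of them among the 69), no set of 5 and a largest set of 3. Its median differences of the 69 from control were 0.33, 0.11 and -0.19 from low to high dose, beside 0.21, 0.12 and 0.04 for all tested probes. With normexp, 11 of the 69 had an unadjusted limma p under 0.05 at 14.7 µg/L against control, 9 higher and 2 lower. The background was then 31.9% of all tested probes, so the direction and the background of that count depend on the background correction. A limit of 3 log2 units gave 224 probes, 13 sets and a largest set of 53, and a limit of 5 gave 24, 1 and 8. Probes well above background on all 12 arrays numbered 27, with 1 set, of 9. The range over all 12 arrays with none dropped gave 394 probes, 7 sets and a largest set of 275. A cut at a height of 0.2 and complete linkage each left 1 set, and raising values to the lowest signal well above background gave 54 probes, 46 of them among the 69, and a largest set of 12, with 12 of the 20 probes of set A past the limit. Leaving out 1 array at a time gave 56 to 68 probes, 2 to 3 sets and a largest set of 9 to 20, with 9 without replicate 1 at 1470 µg/L. It moved the median differences to between -0.25 and 0.015 at 14.7 µg/L (above 0 without replicate 2 of that dose), -0.75 and 0.064 at 147 µg/L (above 0 without replicate 2 of that dose), and -0.84 and -0.29 at 1470 µg/L. The first slide alone gave -0.26 at 14.7 µg/L and -0.65 at 1470 µg/L. Counts of called members stayed at 0 in the limma fits with normexp, quantile normalisation, median scaling, no filter on dim probes, a slide block, the first slide alone and the deposited log2 table, and when an array was left out, except that limma then called 0 to 1 at 147 against 14.7 µg/L: DM09930P1, without replicate 1 or 2 at 1470 µg/L (adjusted p = 0.0408 and 0.0392). The causes of these changes were not tested.

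Replicate numbers are shared by the groups and coincide with slide rows, but same-numbered arrays of different groups did not all deviate together: the correlations of their deviations over the tested probes ran between -0.37 and 0.59 and passed 0.1 in 8 of 18 pairs, against -0.54 to 0.58 and 14 of 36 for differently numbered arrays. The median correlation was 0.04 for same-numbered and -0.15 for differently numbered arrays, and whether a number marks a shared block was not tested. With the replicate number as a block, limma called 1 member at 14.7 µg/L against control (DM09930P1, -3.63 log2 units, adjusted p = 0.00743), and 2, DM09930P1 and DM14920P1, in each of 147 against 14.7 µg/L, 1470 against 14.7 µg/L and the overall F test. Array signals near background and 3 pools a group limit all of these values.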
